A study of Mus musculus with 10 samples.

Results

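A set of 38 genes of limb ectoderm and of the apical ectodermal ridge was followed in forelimb buds of mouse embryos with and without a conditional knockout of Cxxc1. The genes were taken by name: 3 regulators tied to the ridge and the ectoderm around it (Sp6, Sp8 and En1) and 35 general epithelial genes. They were looked up among the 47729 genes of the deposited count table. All 38 were found, and all 38 passed the filter on low counts, which left 20562 genes to test.

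The study sequenced total RNA of 10 forelimb bud libraries, 5 labelled control and 5 labelled knockout, from embryos of embryonic day 11.5 to 12. CXXC1 recognises CpG without methylation and brings in the SET1 complexes, which methylate histone H3. All 5 knockouts carried Prx1Cre, a Cre recombinase that the Prx1 limb enhancer drives in the mesenchyme, and were floxed at both alleles of Cxxc1. Control 1 carried Prx1Cre with 1 floxed and 1 wild-type allele, controls 2 and 4 carried no Cre and 1 floxed allele, and control 3 carried no Cre and 2 floxed alleles. Control 5 carried 2 floxed alleles, and its label puts a question mark after the Cre. Every embryo, controls included, thus had at least 1 floxed allele. Embryos had 49 to 51 somites. Litter A gave 2 controls and 2 knockouts (replicates 1 and 2), and the replicates 3, 4 and 5 of each group came from litters B, C and D. P-values therefore measure the spread between embryos, each of which had a littermate in the other group. The main test took no account of the litter.

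The limb bud is a core of mesenchyme under a sheet of ectoderm. The rim of that sheet thickens into the apical ectodermal ridge, which secretes FGFs that keep the mesenchyme growing, while the mesenchyme sends signals that keep the ridge in place. The transcription factors SP6 and SP8 are needed for ridge formation, and EN1 marks the ventral ectoderm and sets the ventral edge of the ridge. The general epithelial genes encode the regulators, keratins, junctions and surface proteases that ectoderm shares with other epithelia.

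Promoter sequence is shown for 6 genes because CXXC1 binds CpG, and because these genes include pairs that were measured side by side below: Krt5 and Krt14, which pair in basal keratinocytes, and Spint1 and Spint2, inhibitors of the same class of protease. RefSeq promoter entries (GRCm38.p6) matched 19 of the 38 genes, in 24 windows of the 250 bases before a transcription start. Each line runs 5′ to 3′ on the gene's strand, with CpG in capitals. None of the 6 windows overlaps an annotated exon. Those of Sp8 and Krt14 lie inside the annotated span of the gene (chr12:118846329-118852576 and chr11:100203162-100207548), before an internal start. The rest lie just outside the annotated 5′ end. They lie at chr12:118846983-118847232 (plus strand) for Sp8, chr4:135573633-135573882 (minus strand) for Grhl3, chr15:101712906-101713155 (minus strand) for Krt5, chr11:100206031-100206280 (minus strand) for Krt14, chr2:119237110-119237359 (plus strand) for Spint1 and chr7:29281978-29282227 (minus strand) for Spint2.
Sp8: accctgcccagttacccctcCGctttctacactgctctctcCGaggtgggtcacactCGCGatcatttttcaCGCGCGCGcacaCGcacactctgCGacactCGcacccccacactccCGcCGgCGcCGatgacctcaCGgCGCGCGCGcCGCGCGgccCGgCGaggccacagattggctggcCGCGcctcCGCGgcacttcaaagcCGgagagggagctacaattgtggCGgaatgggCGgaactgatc
Grhl3: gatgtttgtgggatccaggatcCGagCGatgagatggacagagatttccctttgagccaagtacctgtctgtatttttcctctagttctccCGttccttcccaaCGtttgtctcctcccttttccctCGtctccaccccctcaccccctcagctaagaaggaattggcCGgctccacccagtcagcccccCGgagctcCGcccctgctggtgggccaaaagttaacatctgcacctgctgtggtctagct
Krt5: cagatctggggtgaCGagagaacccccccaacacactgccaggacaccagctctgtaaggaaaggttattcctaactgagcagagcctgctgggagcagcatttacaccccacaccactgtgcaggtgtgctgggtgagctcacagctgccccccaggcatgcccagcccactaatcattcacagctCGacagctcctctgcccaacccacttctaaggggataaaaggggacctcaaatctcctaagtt
Krt14: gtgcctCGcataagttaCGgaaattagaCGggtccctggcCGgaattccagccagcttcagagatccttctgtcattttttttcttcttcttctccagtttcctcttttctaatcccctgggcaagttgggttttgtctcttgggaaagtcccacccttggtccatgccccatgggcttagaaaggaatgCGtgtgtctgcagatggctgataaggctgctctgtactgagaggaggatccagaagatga
Spint1: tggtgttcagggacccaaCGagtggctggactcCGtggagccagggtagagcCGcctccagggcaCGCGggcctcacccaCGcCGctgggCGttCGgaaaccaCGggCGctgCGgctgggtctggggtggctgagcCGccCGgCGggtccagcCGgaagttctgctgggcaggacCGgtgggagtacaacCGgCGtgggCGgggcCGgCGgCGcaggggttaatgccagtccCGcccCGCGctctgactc
Spint2: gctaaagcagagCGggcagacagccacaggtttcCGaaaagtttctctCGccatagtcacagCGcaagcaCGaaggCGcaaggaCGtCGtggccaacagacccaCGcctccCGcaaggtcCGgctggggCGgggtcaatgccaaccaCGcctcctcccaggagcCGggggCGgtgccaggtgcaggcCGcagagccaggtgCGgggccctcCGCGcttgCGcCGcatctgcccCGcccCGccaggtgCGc

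These windows held 32 CpG for Sp8, 8 for Grhl3, 2 for Krt5, 5 for Krt14, 26 for Spint1 and 24 for Spint2. The Sp8 window was chosen as the densest of 3. The Sp8 window that abuts the annotated start of the gene held 1 CpG, and the remaining window held 6. Across all 32851 windows of the same length the median was 6 CpG, with quartiles of 2 and 16. Among the 15 genes with 1 window, the 9 that rose in the knockout had 2 to 26 CpG (median 9) and the 6 that did not pass the test had 3 to 24 (median 8.5), so the ranges overlapped. A match to AACNNGTT, the core of the motif that grainyhead factors bind, was found in 1 window of the 24, that of Rab25, and in 3.64% of all windows. A match to GCCNNNGGC, the core of the AP-2 motif, was found in 5 windows, 1 each of Sp8, Krt18, Dsp, Spint1 and Spint2, and in 13.7% of all windows. Both motifs read the same on both strands, and a match describes the letters only. Neither binding nor methylation was measured in these libraries.

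Libraries held 33274911 to 49880815 counts, and the limit for a gene at 0, 3 counts, was 0.0601 to 0.0902 CPM (the count scaled to a common library size). All 38 genes were counted in every library, with Ovol1 the lowest at 59 counts in 1 library. Cxxc1 was at 91.4, 95.4, 105.8, 101.6 and 89.5 CPM in controls 1 to 5 and at 75.1, 75.8, 76.2, 75.8 and 73.1 CPM in knockouts 1 to 5, so that every knockout was below every control (log2 fold change -0.36, SE 0.05, adjusted p = 0.000144). The count covers the whole gene, and recombination in the ectoderm was not measured. Markers of both tissue layers of the bud were present: 15 mesenchyme genes summed to 3313 to 3616 CPM in controls, and the 38 epithelial genes to 988.1 to 1389 CPM. Of the periderm markers, Krt4 and Krt13 had at most 2 counts in any library. Among controls, control 4 (litter C) stood highest for most of the epithelial genes, with a summed level of 1389 CPM against 988.1 to 1226 CPM in the other 4.

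Most of the 38 genes were higher in the knockout buds, and none was lower. In edgeR's quasi-likelihood test, with p-values adjusted by Benjamini and Hochberg's method over all 20562 genes and a threshold of 0.05, 26 of the 38 rose, 0 fell and 12 did not pass. The count that fell was also 0 at an unadjusted p below 0.05 and with DESeq2. Over all genes, 18.1% rose (3719), 17.1% fell (3526) and 35.2% were called in either direction, and with scaling by library size alone 4492 rose and 2734 fell. The log2 fold change of knockout over control ran from -0.27 (Krt17) to 1.66 (St14) with a median of 0.52, where the median of all genes was -0.0009. In 17 of the 38 every knockout library lay above every control, which held for 13.0% of all genes. The summed level of the 38 was 1051, 988.1, 1079, 1389 and 1226 CPM in controls 1 to 5 and 1896, 1738, 1581, 1519 and 1607 CPM in knockouts 1 to 5. By this sum, which is a share of the library and not an amount of RNA, every knockout was above every control, with the narrowest gap in litter C. In a whole bud, more cells of a type, more RNA per cell and less RNA of other cell types cannot be told apart.

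**Figure D1:**
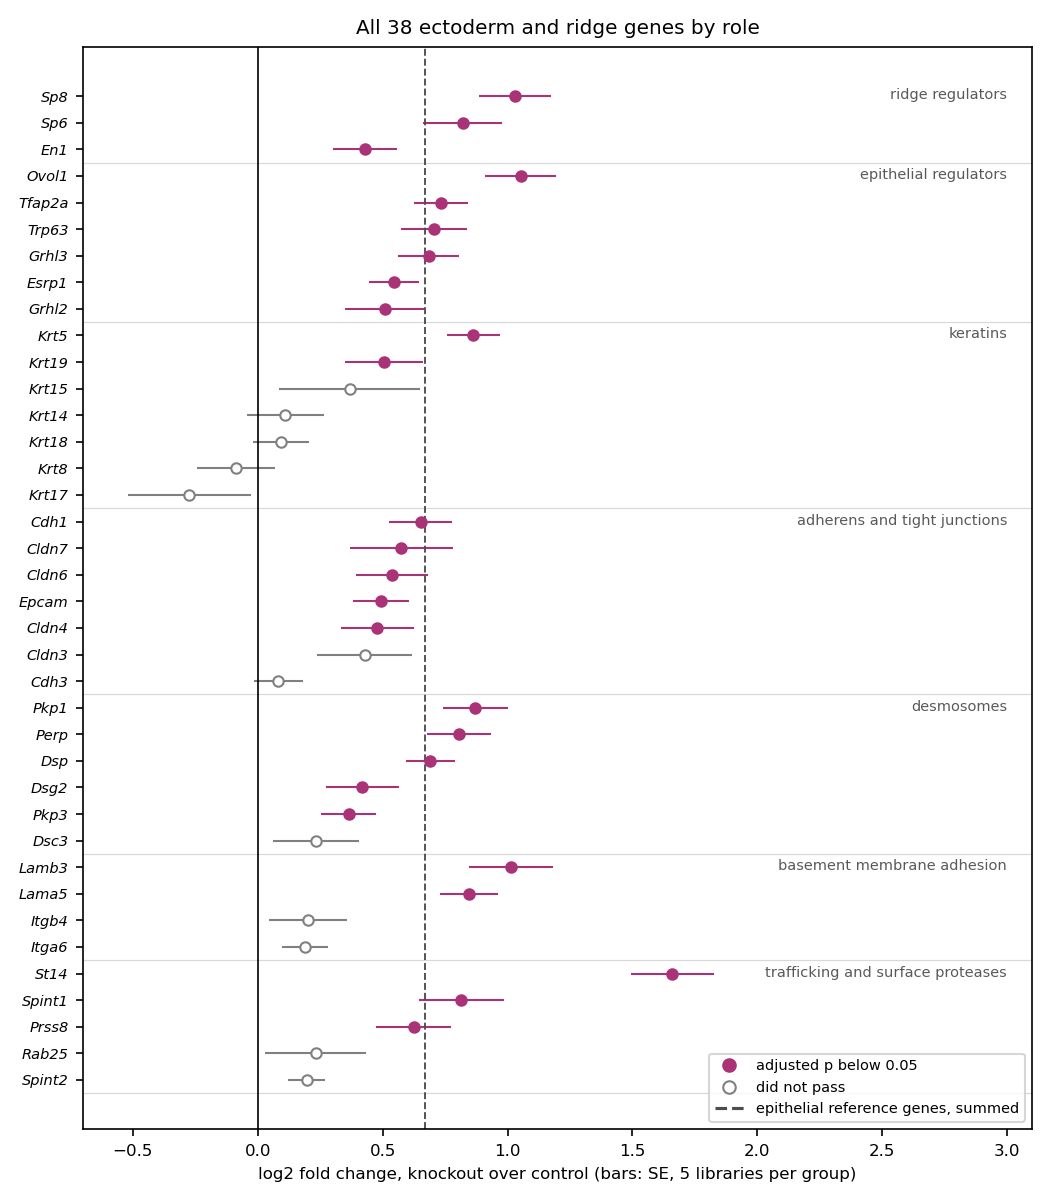
Log2 fold change of knockout over control for the 38 genes, by role, with bars of 1 SE (5 libraries per group); filled points passed at an adjusted p below 0.05 and the dashed line is the change of 37 other epithelial genes summed (0.67). The 26 filled points all lie to the right of 0, from 0.36 (Pkp3) to 1.66 (St14), and 5 of the 7 keratins are open.

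All 3 ridge regulators rose. Sp8, which the ridge needs for Fgf8 expression, was at 10.1, 7.92, 7.97, 14.3 and 10.03 CPM in controls 1 to 5 and at 21.8, 21.7, 19.6, 18.5 and 21.3 CPM in knockouts 1 to 5. The groups did not overlap, and the level was 2.04-fold higher (log2 fold change 1.03, SE 0.14, adjusted p = 0.000181). Sp6, a relative of Sp8 that acts with it in the ridge, was at 20.8, 15.7, 16.5, 28.9 and 20.1 CPM and at 43.0, 40.6, 34.9, 30.1 and 31.5 CPM. Here too every knockout exceeded every control, by little in litter C (0.82, SE 0.16, adjusted p = 0.00166). En1, the ventral ectoderm factor, was at 7.43, 7.29, 6.56, 9.77 and 8.97 CPM and at 12.3, 12.2, 9.77, 9.24 and 10.3 CPM. En1 groups overlapped, since control 4 was above knockout 4, and its change was the smallest of the 3 (0.43, SE 0.13, adjusted p = 0.0194). A transcript on the opposite strand, Gm11532, shares 86.7% of the exon bases of Sp6 and was at 0.659 ± 0.171 and 2.53 ± 0.613 CPM (SD, n = 5 each). With the use of strand in counting not given in the sources used here, the counts of Sp6 are less certain.

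Without litter A, which leaves 3 libraries against 3, Sp8 kept its call, while Sp6 (0.56, adjusted p = 0.0715) and En1 (0.21, adjusted p = 0.403) no longer passed. The call for En1 was also lost without knockout 2 and with the 3 controls without Cre only. Per litter, the log2 difference of Sp8 was 1.27, 1.30, 0.37 and 1.09 in litters A to D, and that of En1 was 0.74, 0.58, -0.08 and 0.21. Sp8 thus pointed up in all 4 litters and En1 in 3. The ratio of Sp8 to En1 within a library ran from 0.12 to 0.55 on the log2 scale in controls and from 0.83 to 1.04 in knockouts, without overlap. Of Sp8 to Sp6 it ran from -1.05 to -0.99 in controls and from -0.98 to -0.57 in knockouts, a narrow band in the controls that all 5 knockouts exceeded. Such ratios were taken for chosen pairs only, and those of Krt8 to Krt18 and of Cdh3 to Cdh1 overlapped between the groups. The share of all gene pairs without overlap was not computed.

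**Figure D2:**
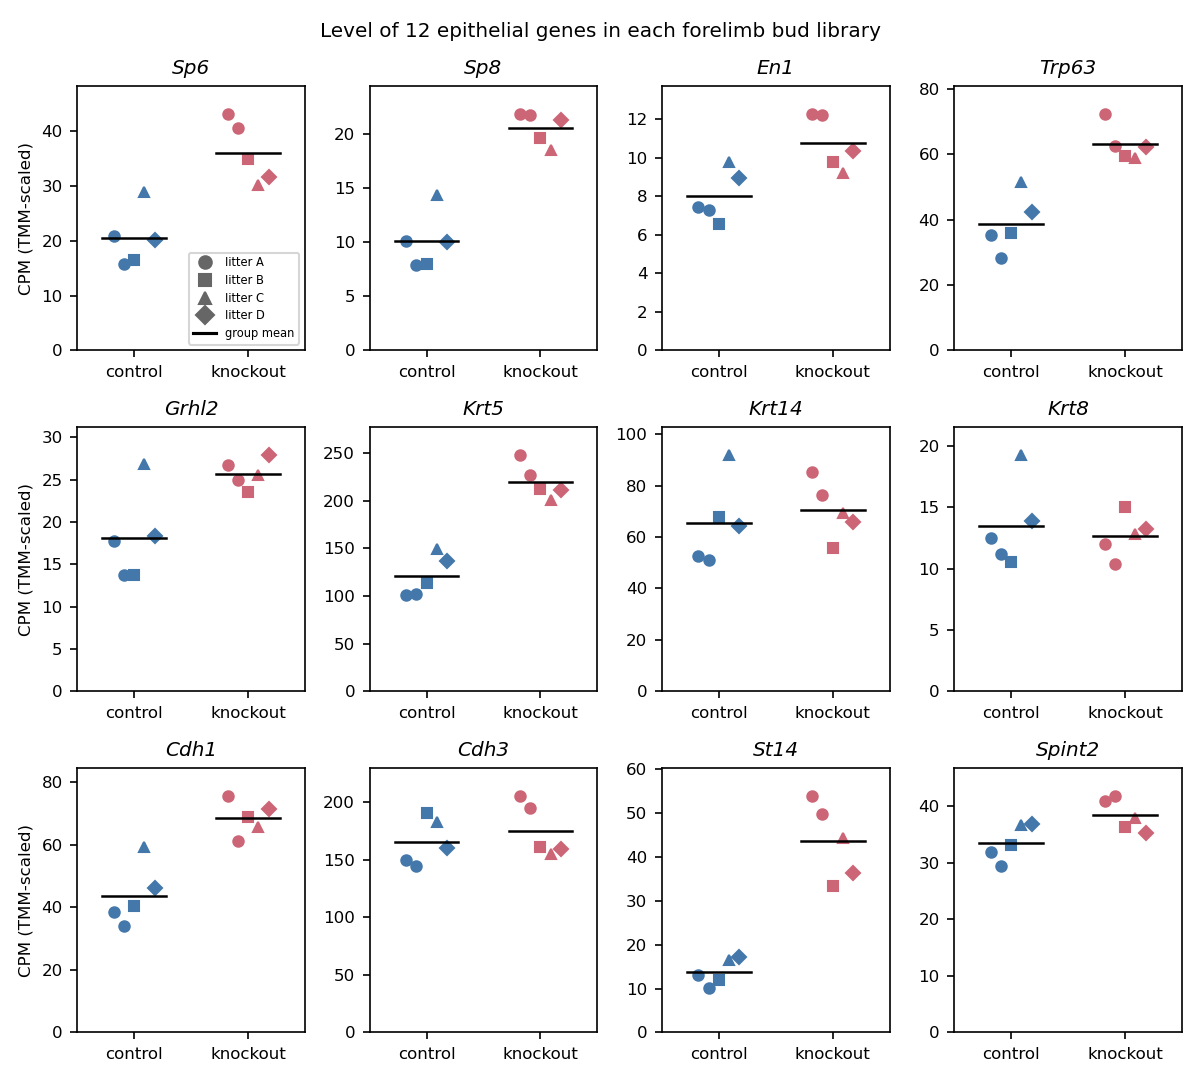
Level in CPM (TMM-scaled) of 12 of the genes in each library, by group, with the litter as the marker and a bar at the group mean. Sp8, Krt5 and St14 separate the groups, while Krt14, Krt8, Cdh3 and Spint2 overlap, and the triangle of control 4 is the highest control in 9 of the 12 panels.

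All 6 epithelial regulators rose, with log2 fold changes of 0.51 to 1.05 and a median of 0.69. Trp63, the p63 factor that sets up stratified epithelium and is needed for the ridge, was at 35.2, 28.3, 36.0, 51.7 and 42.3 CPM in controls 1 to 5 and at 72.3, 62.5, 59.6, 59.1 and 62.4 CPM in knockouts 1 to 5. All 5 knockouts were above the highest control (0.71, SE 0.13, adjusted p = 0.00127). Tfap2a, which encodes AP-2 alpha of surface ectoderm, rose from 32.1 ± 5.35 to 53.4 ± 5.78 CPM (SD, n = 5 each) without overlap. Ovol1, a zinc finger factor of differentiating epidermis, was the lowest of the 38 and had the second largest fold change: 1.29, 1.37, 1.88, 1.77 and 1.62 CPM in controls and 3.81, 3.32, 3.11, 3.29 and 2.94 CPM in knockouts (1.05, SE 0.14, adjusted p = 0.000148). Its groups did not overlap, and 19.8% of its exon bases are shared with the opposite-strand Gm31166. Grhl3, a grainyhead factor of barrier formation and wound closure, rose from 15.6 ± 3.24 to 25.1 ± 2.01 CPM (0.68, SE 0.12). Esrp1, a splicing regulator that keeps epithelial isoforms, rose from 32.1 ± 5.33 to 46.9 ± 3.76 CPM (0.55, SE 0.10). Grhl2, a grainyhead factor that sustains Cdh1 expression, rose from 18.1 ± 5.34 to 25.7 ± 1.67 CPM (0.51, SE 0.16, adjusted p = 0.025), with control 4 at 26.8 CPM inside the range of the knockouts. The call of Grhl2 was lost without control 1, 2 or 3, without knockout 5, without litter A and with the controls without Cre only.

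The keratins, which form the intermediate filaments of epithelial cells, were the group with the lowest share of calls, 2 of 7 (median 0.11). Krt5, the type II keratin of basal cells, was at 100.9, 102.3, 114.2, 149.6 and 136.8 CPM in controls 1 to 5 and at 247.7, 226.6, 212.1, 200.8 and 211.3 CPM in knockouts 1 to 5. Every knockout held more than every control (0.86, SE 0.11, adjusted p = 7.2e-05). Krt14, its type I partner in the basal filament, was at 52.8, 50.9, 67.8, 91.7 and 64.1 CPM and at 85.3, 76.4, 55.9, 69.5 and 66.0 CPM. Its groups overlapped from end to end and it did not pass (0.11, SE 0.15, adjusted p = 0.634). The log2 ratio of Krt5 to Krt14 was 0.90 ± 0.17 in controls and 1.65 ± 0.17 in knockouts (SD, n = 5 each), from 0.71 to 1.09 and from 1.53 to 1.92, without overlap. The CPM ratio takes no account of transcript length, which is the same in both groups.

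Krt19, a keratin of embryonic and simple epithelia, rose from 4.90 ± 0.967 to 6.97 ± 1.14 CPM (0.51, SE 0.16, adjusted p = 0.0244), with overlap, and lost its call without control 1, 2 or 3, knockout 3, 4 or 5, or litter A. The simple-epithelium pair of Krt8 and Krt18, which mark early ectoderm and periderm, did not pass. Krt8 was at 13.5 ± 3.47 and 12.7 ± 1.70 CPM (-0.09, SE 0.16, adjusted p = 0.707). Krt18 was at 15.5 ± 2.30 and 16.6 ± 1.89 CPM (0.09, SE 0.11, adjusted p = 0.571). The log2 ratio of Krt8 to Krt18 was -0.225 ± 0.218 in controls and -0.388 ± 0.097 in knockouts (SD, n = 5 each), with overlap. The sign of Krt8 rested on control 4, without which its log2 fold change was 0.07. Krt15, a basal keratin, was at 9.14 ± 4.27 and 11.8 ± 3.50 CPM (0.37, SE 0.28, adjusted p = 0.356). It passed without control 5, whose 16.7 CPM was above every other library. Krt17, a keratin of skin appendages and periderm, was at 7.91, 14.4, 19.3, 25.2 and 15.9 CPM in controls and at 13.3, 16.1, 9.74, 16.3 and 12.8 CPM in knockouts, a mean difference well within the spread of the controls (-0.27, SE 0.25, adjusted p = 0.432).

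Among the 7 genes of adherens and tight junctions, 5 rose and 2 did not pass (median 0.49). Cdh1, which encodes E-cadherin, was at 38.5, 33.9, 40.3, 59.2 and 46.2 CPM in controls 1 to 5 and at 75.5, 61.3, 69.0, 65.8 and 71.5 CPM in knockouts 1 to 5. Control 4 was just below knockout 2, the lowest knockout, and the groups did not overlap (0.65, SE 0.13, adjusted p = 0.00166). Cdh3, the neighbouring P-cadherin gene (chromosome 8, 106510891 to 106557297, against 106603351 to 106670246 for Cdh1), was at 149.8, 144.6, 190.5, 182.9 and 160.5 CPM and at 205.2, 195.1, 161.2, 155.3 and 159.4 CPM. Its log2 difference was 0.44 in litter A, -0.24 in litter B, -0.24 in litter C and -0.01 in litter D, and it did not pass (0.08, SE 0.10, adjusted p = 0.572). The log2 ratio of Cdh3 to Cdh1 was 1.94 ± 0.24 in controls and 1.35 ± 0.21 in knockouts (SD, n = 5 each), with overlap. Epcam, a cell surface adhesion protein found on most epithelia, rose from 44.2 ± 8.76 to 62.3 ± 3.97 CPM (0.49, SE 0.11, adjusted p = 0.00454), the highest control being 58.16 and the lowest knockout 58.23 CPM. The claudins seal tight junctions. Cldn6 rose from 20.7 ± 5.18 to 30.1 ± 3.06 CPM (0.54, SE 0.14), Cldn4 from 11.2 ± 2.78 to 15.6 ± 1.36 CPM (0.48, SE 0.15) and Cldn7 from 5.74 ± 1.94 to 8.55 ± 1.22 CPM (0.57, SE 0.21, adjusted p = 0.0481). All 3 overlapped. The call of Cldn7 was lost in 13 of 20 alternatives, among them the fits without control 1, 2 or 3, without knockout 1, 2, 3 or 4, and with the replicate number or the litter as a block. Cldn4 lost its call without control 1 or 3 or knockout 1. With the 3 controls without Cre only, 21 of the 38 genes rose, and the calls of En1, Grhl2, Cldn4, Cldn7, Pkp3 and Dsg2 were lost. Calls over all genes also fell in that fit, to 3054 higher and 2727 lower. Cldn3, at 2.15 ± 0.543 and 2.90 ± 0.517 CPM, missed the threshold (0.43, SE 0.19, adjusted p = 0.103).

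Of 6 desmosome genes, 5 rose and 1 did not pass (median 0.55). Dsp encodes desmoplakin, which ties keratin filaments to the desmosome. It was at 106.7, 106.3, 87.9, 104.7 and 106.4 CPM in controls 1 to 5 and at 193.0, 166.3, 170.2, 124.7 and 172.6 CPM in knockouts 1 to 5, a rise of 0.69 (SE 0.10, adjusted p = 0.000209). Dsp differs from most of the set in that control 4 lay with the other controls. Knockout 4 was its lowest knockout, as it was for Sp6, Sp8 and En1 among others. Pkp1, the plakophilin of upper epidermal layers, rose from 6.65 ± 1.37 to 12.2 ± 0.970 CPM (0.87, SE 0.13) and Perp, a desmosome protein under p63 and p53 control, from 34.6 ± 7.65 to 60.4 ± 5.33 CPM (0.81, SE 0.13), neither with overlap. Pkp3, a plakophilin found in most desmosomes, rose from 10.1 ± 1.13 to 13.0 ± 1.76 CPM (0.36, SE 0.11). Dsg2, the desmoglein of simple epithelia, rose from 19.9 ± 3.59 to 26.6 ± 5.75 CPM (0.42, SE 0.15, adjusted p = 0.0428), with knockout 1 at 36.7 CPM. Both overlapped. The call of Pkp3 was lost without control 1 or knockout 1, and that of Dsg2 without control 1, 2, 3 or 5, without knockout 1 or 2, and with the replicate number or the litter as a block. Dsc3, a desmocollin of stratified epithelium, was at 5.35 ± 1.09 and 6.28 ± 1.30 CPM (0.23, SE 0.17, adjusted p = 0.335).

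Genes of adhesion to the basement membrane split into laminins and integrins. Lama5, the laminin alpha chain of the limb basement membrane, was at 81.9, 76.9, 83.2, 106.8 and 97.5 CPM in controls 1 to 5 and at 188.8, 188.1, 141.3, 134.7 and 147.9 CPM in knockouts 1 to 5 (0.84, SE 0.12, adjusted p = 0.000156). Lamb3, the beta chain of laminin-332, was at 3.75, 4.18, 3.25, 3.46 and 3.87 CPM and at 6.43, 8.88, 9.87, 7.16 and 5.05 CPM (1.01, SE 0.17, adjusted p = 0.000607). Both laminin genes were higher in every knockout than in every control. Itga6 and Itgb4 encode the integrin of the hemidesmosome that binds laminin-332. Itga6 was at 88.3, 84.3, 69.3, 84.2 and 107.0 CPM and at 97.3, 98.9, 105.2, 91.0 and 100.8 CPM (0.19, SE 0.09, adjusted p = 0.136). Itgb4 was at 9.51 ± 1.42 and 10.9 ± 2.43 CPM (0.20, SE 0.15, adjusted p = 0.352). The integrin genes overlapped and did not pass, but Itga6 passed without control 5, with scaling by library size alone and with the 3 controls without Cre only. Itga6 is also expressed outside epithelia, in endothelium among others.

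Of 5 genes of trafficking and surface proteases, 3 rose (median 0.62). St14 encodes matriptase, a serine protease on the surface of epithelial cells, and had the largest fold change of the 38. It was at 13.1, 10.1, 12.0, 16.4 and 17.2 CPM in controls 1 to 5 and at 53.8, 49.8, 33.3, 44.4 and 36.3 CPM in knockouts 1 to 5, a level 3.16-fold higher (1.66, SE 0.17, adjusted p = 1.3e-05). The gap between the groups was wide, from control 5 at 17.2 CPM to knockout 3 at 33.3 CPM. Prss8 encodes prostasin, a membrane protease that works in a cascade with matriptase, and rose from 3.15 ± 0.627 to 4.87 ± 0.580 CPM (0.62, SE 0.15, adjusted p = 0.00648). Spint1 and Spint2 encode HAI-1 and HAI-2, inhibitors of matriptase. Spint1 was at 9.97, 7.50, 8.01, 14.7 and 9.67 CPM and at 20.4, 18.8, 16.6, 18.1 and 13.8 CPM (0.81, SE 0.17, adjusted p = 0.00279). Spint2 was at 31.9, 29.4, 33.1, 36.6 and 36.8 CPM and at 41.0, 41.8, 36.4, 37.9 and 35.2 CPM (0.20, SE 0.07, adjusted p = 0.0596). Spint1 rose although control 4 exceeded knockout 5, and Spint2 did not pass. It passed with DESeq2, with scaling by library size and without control 4, control 5 or knockout 5. Rab25, a GTPase of epithelial recycling endosomes, was at 2.28 ± 0.589 and 2.68 ± 0.463 CPM (0.23, SE 0.20, adjusted p = 0.416).

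Against its inhibitors the protease gene had moved up. The log2 ratio of St14 to Spint1 was 0.48 ± 0.25 in controls and 1.30 ± 0.17 in knockouts, and that of St14 to Spint2 was -1.31 ± 0.19 and 0.16 ± 0.20 (SD, n = 5 each). Neither ratio overlapped between the groups. Matriptase is also made by some immune cells, and the 10 macrophage markers, all of which rose, summed to 54.3 to 66.7 CPM in controls and 205.6 to 242.0 CPM in knockouts. Their part in the level of St14 was not tested.

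The ridge regulators were compared with the 35 general epithelial genes as mean log2 CPM (with 0.5 added), set to 0 at the control mean. The 3 ridge regulators had a median log2 fold change of 0.82 and 3 of 3 rose. The 35 general genes had a median of 0.51, and 23 rose and 12 did not pass. Within a library, the ridge score minus the general score was 0.14, -0.05, -0.16, 0.14 and -0.08 in controls 1 to 5 and 0.25, 0.40, 0.23, 0.10 and 0.24 in knockouts 1 to 5. Knockouts 1, 2, 3 and 5 were above every control, and knockout 4 fell below controls 1 and 4, so the groups overlapped. With 3 genes in the ridge score, 1 of them (En1) changed by less than the median general gene.

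**Figure D3:**
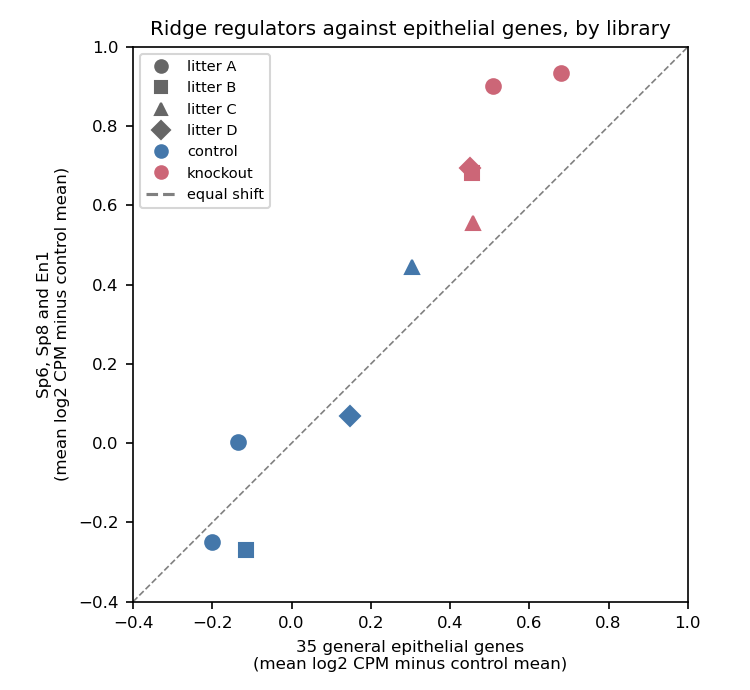
Mean log2 CPM of Sp6, Sp8 and En1 (vertical) against that of the 35 general epithelial genes (horizontal) in each library, both relative to the control mean, with a dashed line of equal shift. All 5 knockouts lie above the line, by 0.10 to 0.40, and the controls lie on both sides, from -0.16 to 0.14.

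To ask which genes moved by more or less than 37 other epithelial genes, the counts were tested again with each library's size set to its summed count over those 37. This sum, the epithelial reference, stands for those genes and not for all epithelial RNA. That reference summed to 351.3, 304.6, 375.8, 469.9 and 395.8 CPM in controls 1 to 5 and to 683.7, 606.8, 574.4, 548.9 and 585.2 CPM in knockouts 1 to 5, without overlap. The difference was 0.67 on the log2 scale (exact two-sided permutation p = 0.00794, the smallest that 5 against 5 can give). With permutation within litters only, p was 0.0417, again the smallest possible. The reference list was chosen with earlier results of these data known, which limits what either p-value can show. Of its 36 tested genes 22 rose and 0 fell (median 0.55), with the smallest adjusted p for Plekha7 (1.45), an adherens junction protein, Tfap2c (1.23), an AP-2 factor, Col17a1 (1.26), a hemidesmosome collagen, and Evpl (0.59), a protein of the cornified envelope.

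On that scale 2 of the 38 genes were higher, 9 were lower and 27 did not pass. The count that was higher depended on the reference, being 7 with its geometric mean and 4 without its most abundant gene. Over all genes 3.29% were higher and 70.3% lower, with a median log2 fold change of -0.68, and the counts of the 38 are to be read against those shares. The 2 higher genes were St14 (1.00, SE 0.14, adjusted p = 9.0e-06) and Sp8 (0.38, SE 0.13, adjusted p = 0.014). Without control 3 the call of Sp8 was lost (0.31, adjusted p = 0.0519). Sp6 (0.16, SE 0.12, adjusted p = 0.236) and En1 (-0.24, SE 0.14, adjusted p = 0.129) did not pass, and the 6 epithelial regulators did not pass either, at -0.13 to 0.39. The 9 lower genes were 4 keratins, Krt17 (-0.91, SE 0.20), Krt8 (-0.73, SE 0.15), Krt18 (-0.57, SE 0.14) and Krt14 (-0.54, SE 0.12), and 5 genes of adhesion and the cell surface, Cdh3 (-0.60, SE 0.11), Itgb4 (-0.51, SE 0.19), Itga6 (-0.49, SE 0.14), Spint2 (-0.47, SE 0.11) and Dsc3 (-0.43, SE 0.17). None of these 9 passed in either direction when scaled by TMM. Leaving out litter A lost the calls of Krt18, Dsc3, Itga6 and Itgb4. That of Dsc3 was also lost without control 2 or 3 or knockout 3 or 5 and with either other reference, and that of Itgb4 without control 2 or knockout 4 and with the geometric mean.

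**Figure D4:**
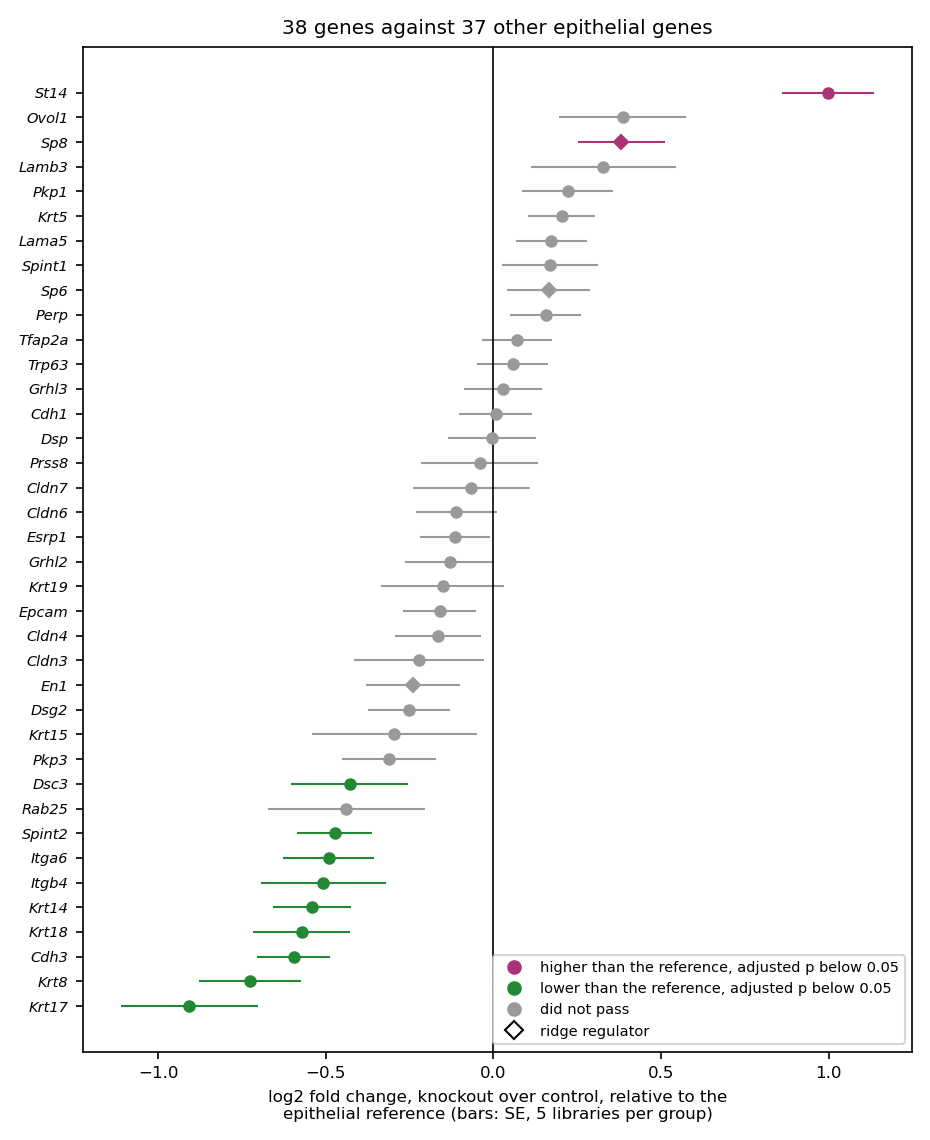
Log2 fold change of knockout over control relative to the summed count of 37 other epithelial genes, with bars of 1 SE (5 libraries per group), ordered by size. St14 (1.00) and Sp8 (0.38) were higher than the reference, 9 genes at the bottom from Dsc3 (-0.43) to Krt17 (-0.91) were lower, and 27 in grey did not pass.

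Signals, receptors and factors of the ridge, the ectoderm and, as with Lmx1b, the mesenchyme beneath were followed beside these genes. Of 27 signals, receptors and factors, 13 rose, 5 fell and 9 did not pass. Among all genes tested 18.1% rose and 17.1% fell, and the share of the list that fell was near the latter. Fgf8, the main ridge growth factor, was 1.07 higher (SE 0.21, adjusted p = 0.00154) and Jag2, a Notch ligand of the ridge, 0.70 (SE 0.11), while Wnt7a, the dorsal ectoderm signal, did not pass (0.11, SE 0.16, adjusted p = 0.651). Relative to the epithelial reference, Fgf8 was higher by 0.45 (SE 0.15, adjusted p = 0.0145), and Jag2 did not pass (0.04, SE 0.10). Wnt7a was lower on that scale (-0.54, SE 0.14, adjusted p = 0.00173). Of the 27, 3 were higher and 11 lower than the reference, where 3.29% of all genes were higher and 70.3% lower. Without litter A Fgf8 lost its call both with TMM (0.82, adjusted p = 0.0502) and relative to the reference (0.39, adjusted p = 0.106). The smallest adjusted p values were those of Bmp7 (0.64), a BMP ligand, Cd44 (1.28), a hyaluronan receptor strong in the ridge, Lmx1b (-0.51), the dorsal mesenchyme factor, and Dlx3 (0.85), an ectoderm homeobox factor. Bmp7, Cd44 and Dlx3 rose and Lmx1b fell. In whole buds the cells that carried these changes were not identified. The other genes of the list that fell were named after their values were seen. They were Fgfr2 (-0.32), a receptor for FGFs, Eda (-0.68), the ectodysplasin ligand, Lgr5 (-0.63), a receptor for R-spondins, and Dlx5 (-0.34), a homeobox factor.

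Lists of other cell types were followed in the same libraries, where 18.1% of all genes rose and 17.1% fell. Of 15 limb mesenchyme genes 11 fell, 1 rose and 3 did not pass (median -0.58), and their sum was 3313 to 3616 CPM in controls and 2058 to 2179 CPM in knockouts. The smallest adjusted p values were those of Pdgfra (-1.87), a growth factor receptor, Prrx1 (-0.96), whose enhancer drives the Cre, Meox2 (-1.41), a homeobox factor, and Fn1 (-0.70), fibronectin. Of the blood and vessel lists, 8 of 8 erythroid genes and 6 of 9 endothelial genes rose, with sums of 2329 to 2734 against 2848 to 5820 CPM and 262.7 to 315.6 against 326.7 to 381.5 CPM. Of 8 muscle precursor genes 5 rose, with overlapping sums of 101.7 to 128.3 against 115.2 to 215.9 CPM. Of 9 Schwann and melanoblast genes 1 rose and 2 fell, with overlapping sums of 73.3 to 87.8 against 73.5 to 78.4 CPM. Of 5 tested periderm genes, 1 (Grhl3, among the 38) rose. Rises made up 11.1% of the Schwann and 20.0% of the periderm list, near the share of all genes. No list had a gene at 0 in every library. The part of a changed mix of cells in the epithelial rise was not tested.

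The size of the epithelial rise differed between the litters. Litters B, C and D each held a single embryo of each group, so variation between litters and between embryos cannot be told apart. The mean log2 difference of the 38 genes was 0.78 in litter A, 0.60 in litter B, 0.15 in litter C and 0.33 in litter D. The ridge regulators differed by 1.04, 0.95, 0.11 and 0.63, the keratins by 0.45, 0.29, -0.03 and 0.04, and the epithelial reference by 0.76, 0.53, 0.12 and 0.45. Litter C, with the high control 4, thus had the smallest difference in all 4, and 20 of the 38 genes were higher in the knockout of all 4 litters. The share of all genes that were so was not computed. Without litter A 13 of the 38 rose and 0 fell: Sp8, Trp63, Tfap2a, Grhl3, Ovol1, Krt5, Cdh1, Perp, Dsp, Pkp1, Lama5, Lamb3 and St14. These same 13 passed under each of the 20 alternatives run, and the share of all genes that did so was not computed. Over all genes, 2002 rose and 2021 fell without litter A. The mesenchyme genes differed by -0.67 to -0.55 and the macrophage genes by 1.65 to 1.85 across the litters.

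**Figure D5:**
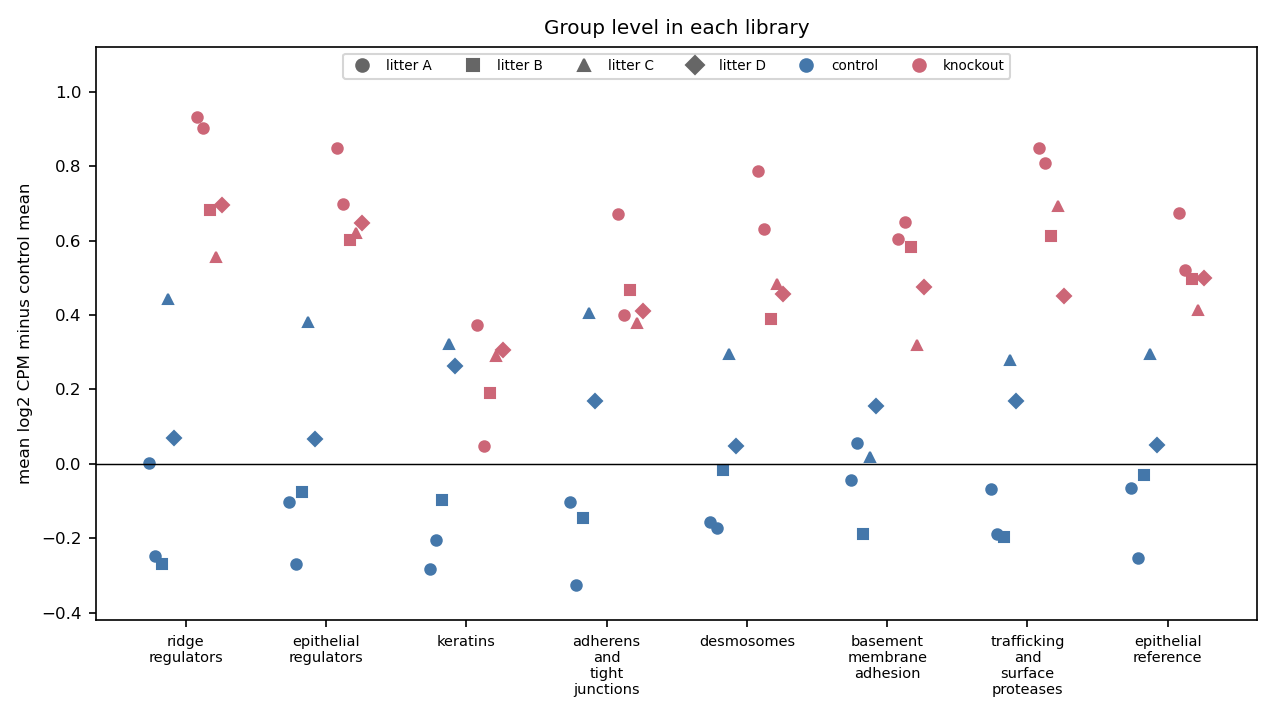
Mean log2 CPM of each role group and of the epithelial reference in every library, relative to the control mean, with the litter as the marker. Control 4 (triangle) is the highest control of the ridge regulators at 0.44, and knockouts fall among controls for the keratins (0.05 to 0.37 against -0.28 to 0.32) and, with 2 of 5 below control 4, for the adherens and tight junctions.

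Per kilobase of exon, the genes spanned a wide range in controls. Krt5 was highest at 55.0 ± 9.84 CPM per kb, followed by Cdh3 at 37.8 ± 4.61 and Krt14 at 37.2 ± 9.30, which overlapped each other but not Krt5 above or Epcam (20.2 ± 3.99) below (SD, n = 5 each). Most further neighbours in the order overlapped, down to Lamb3 at 0.560 ± 0.0545 and Ovol1 at 0.455 ± 0.0724. Of the ridge regulators, Sp6 was at 5.31 ± 1.36, En1 at 3.05 ± 0.504 and Sp8 at 2.21 ± 0.573 CPM per kb. In knockouts Sp8 reached 4.52 and En1 4.10 CPM per kb, so that their order was the reverse of that in controls.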

How the data were processed

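Total RNA of 10 forelimb bud libraries was measured, and groups came from the sample titles. The authors deposited 1 table of estimated counts per Ensembl gene. The submitters' processing notes name the build mm10, DESeq2 1.16.1, Salmon 0.8.2 and R 3.4.1 and give none of them a role. The step from transcripts to genes and the use of strand were not given in the sources used here. Among deposited counts above 0, 0.0592% were whole (within 1e-06), and all were rounded here. A second table that the authors deposited as FPKM held another signal: in 100% of its values the signal equalled a rounded count divided by 1 factor per library, within 0.01. It served only as an alternative, on log2(value + 1) with limma 3.58.1.

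Symbols and exons came from GENCODE M21 (GRCm38). The filter was filterByExpr with a minimum count of 10 and a minimum total of 15. Scaling was by TMM, and edgeR 4.0.16 in R 4.3.3 (glmQLFit, glmQLFTest) tested knockout against control without covariates, adjusting by Benjamini-Hochberg over 20562 genes at 0.05. The SE is the size of the log2 fold change over the root of F. Levels are CPM after TMM scaling, n = 5 per group. The fit relative to the epithelial reference set each library's size to its summed count of that list. The fits were tested on simulated data. The biological coefficient of variation was 16.4%. No 2 libraries of a group were duplicates (chi-square over its degrees of freedom 15.9 to 44.6). Limits at 3 counts cover counting error only.

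The 38 genes, the other lists and the tests were chosen with earlier results of these data known. Every one of the 38 is named. From the reference, signal and mesenchyme lists the 4 with the smallest adjusted p are named, with Fgf8, Jag2 and Wnt7a whatever their test.

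Per the labels, same-numbered control and knockout libraries shared a litter in 5 of 5 pairs, so the numbers pair them by litter. The correlations of their deviations from the group means were -0.04, 0.13, -0.03, 0.06 and 0.22 (median of other pairs -0.0087). Alternatives were DESeq2 1.42.0, DESeq2 size factors in edgeR, library size alone, no filter, replicate number or litter as a block, somite stage as a term, the second table, each library left out, no litter A, controls without Cre only, and for the reference a geometric mean and the list without its most abundant gene.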

Additional observations from a re-analysis of the deposited data

Results flagged for a closer look

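In 78 groups of 5 libraries (38 genes and Cxxc1, each in controls and knockouts), 7 had 1 library farther from the rest than Dixon's 95% limit for 5 samples (0.71 of the range). Chance flags about 1 in 20 groups.

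Knockout 1 was high for 3 genes: Trp63 at 72.3 CPM where the other knockouts held 59.1 to 62.5, Grhl3 at 28.6 CPM against 23.8 to 24.9, and Dsg2 at 36.7 CPM against 22.8 to 25.7. Trp63 and Grhl3 kept their calls without that library, and Dsg2 did not. Knockout 2 was low for 2 keratins, Krt18 at 13.3 CPM against 16.97 to 18.07 and Krt19 at 5.00 CPM against 7.10 to 7.90. Control 5 was high for Krt15, at 16.7 CPM against 6.13 to 8.18 in the other controls, and without it Krt15 passed the test. Control 3 was low for Dsp, at 87.9 CPM against 104.7 to 106.7. Control 4, the highest control for most of the 38 genes, was in none of these 7.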

How the results depend on the processing

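The count of the 38 genes that rose was 26, and 20 to 28 when 1 library was left out, with 0 lower in every alternative. Without litter A (3 against 3) it was 13, with 2002 genes higher and 2021 lower over all genes, and the epithelial reference differed by 0.47 (exact permutation p = 0.1, the smallest possible). The reference difference was 0.60 to 0.75 when 1 library was left out, and the calls over all genes were 3183 to 3600 higher and 3096 to 3428 lower. Scaling by library size alone called 4492 higher and 2734 lower. With the replicate number or the litter as a replicate block 24 genes rose, the calls of Cldn7 and Dsg2 being lost, and the reference differed by 0.67 (exact permutation p within litters = 0.0417, the smallest possible). The block changed no other call of the 38. Over all genes 3491 rose and 3359 fell with the replicate number as block, and 3723 and 3591 with the litter.

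Relative to the reference, 2 genes were higher: 7 with a geometric mean (St14, Sp8, Ovol1, Krt5, Perp, Pkp1 and Lama5), 4 without its most abundant gene (with Ovol1 and Krt5), and 1 to 3 when 1 library was left out, the 1 being without control 3. Lower were 9, 7 to 10 when 1 library was left out, and 5 without litter A. Among genes that did not pass in that fit, 7 turned sign. With the geometric mean Cldn7 was at 0.0299, Dsp at 0.0938 and Prss8 at 0.0547, and without the most abundant gene at 0.00316, 0.0668 and 0.0274. With the litter as a block Dsp was at 0.00794. With 1 library left out, the range was -0.071 to 0.0954 for Dsp, -0.0171 to 0.0496 for Cdh1, -0.118 to 0.0367 for Prss8, -0.0129 to 0.0638 for Grhl3, -0.40 to 0.00225 for Krt15 and -0.169 to 0.0233 for Cldn7. Without litter A Krt19 was at 0.0679 and Dsp at 0.173.

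In the fit scaled by TMM, signs turned for Krt8 without control 4 (0.0734), and without litter A for Krt14 (-0.23), Cdh3 (-0.17), Dsc3 (-0.10) and Wnt7a (-0.11), none of which passed. The cause was not tested. The lowest count of any of the 38 in a library was 59.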
